A study of Arabidopsis thaliana with 36 samples.

Results

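The genes described are TPS1 (AT1G78580) and TPS5 to TPS11 (AT4G17770, AT1G68020, AT1G06410, AT1G70290, AT1G23870, AT1G60140 and AT2G18700) of Arabidopsis thaliana, which encode trehalose phosphate synthase or proteins related to it. They were taken by name from a table of 33602 genes, and all 8 were among the 20263 genes that passed the filter on low counts. RNA had been sequenced from rosettes of the accessions Col-0, of intermediate freezing tolerance, and N14, which is cold tolerant. Each of the 12 groups held 3 libraries, one from each of 3 independent experiments, and each library was made from pooled material of 5 replicate samples. The control groups, C28 and C35, were sampled after 28 and 35 days of growth, the last phase of it at 20 °C by day under 200 µE of light. The group C28P3 had a first cold treatment (priming) at 28 days, which was 3 days at a constant 4 °C with 16 h days and 90 µE. C28P3L7 plants had the same cold and then a lag of 7 days at 20 °C, and C28P3L7T3 plants were then given a second cold treatment (triggering) of 3 days. C35P3 plants had their first 3 days of cold at 35 days. Temperature and light changed together and cold plants were 3 days older than the plants they were set against, so the effects of cold, light and those days cannot be told apart. The labels name 15 rosettes for C28 and C28P3 and 4 for the other groups, so the comparisons of ages and of the lag with the end of the first cold also differ in that number. The labels name no mutation or transgene in any group.

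Trehalose phosphate synthase joins UDP-glucose and glucose 6-phosphate into trehalose 6-phosphate, a sugar phosphate whose level follows that of sucrose in plant tissue. In Arabidopsis the synthesis rests mainly on TPS1, whereas TPS5 to TPS11 form the class II proteins, which carry both a synthase-like and a phosphatase-like domain and for most of which no synthase activity is known. Trehalose 6-phosphate restrains SnRK1, the kinase that switches on starvation genes when sugars are short, trehalose phosphate phosphatases remove it, and class II proteins have been found bound to SnRK1. In leaves, several class II genes are known for high transcript levels when carbon is short, and TPS5 for higher levels when sugar is plentiful.

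Upstream sequences are shown for the 4 members on which the results below turn most, TPS5, which rose in the cold, and TPS8, TPS9 and TPS11, which fell in some or all cold comparisons. Each is the 250 bases before the annotated gene start, read 5′ to 3′ on the gene's strand from the RefSeq TAIR10.1 genome with that release's own annotation. The windows lie at chr4:9875922-9876171 (plus strand), chr1:26474834-26475083 (minus), chr1:8431929-8432178 (plus) and chr2:8108648-8108897 (plus). Capitals mark matches, on either strand, to any of 6 short motifs: CCGAC, the core of the C-repeat element that CBF cold factors bind, CACGTG (G-box), ACGTG (core of the abscisic acid response element, which the G-box holds), TATCCA (a sugar response element), AAAATATCT (evening element) and GATAAG (I-box).
TPS5: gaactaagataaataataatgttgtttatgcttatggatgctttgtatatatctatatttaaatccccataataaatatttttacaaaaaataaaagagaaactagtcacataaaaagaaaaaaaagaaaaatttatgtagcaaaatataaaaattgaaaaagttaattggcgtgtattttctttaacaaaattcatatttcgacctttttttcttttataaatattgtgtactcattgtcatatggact
TPS8: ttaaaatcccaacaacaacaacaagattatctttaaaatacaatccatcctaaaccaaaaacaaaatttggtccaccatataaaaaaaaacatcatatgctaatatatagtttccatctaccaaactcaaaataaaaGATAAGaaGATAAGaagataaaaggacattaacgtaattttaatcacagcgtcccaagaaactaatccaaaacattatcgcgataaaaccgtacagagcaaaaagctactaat
TPS9: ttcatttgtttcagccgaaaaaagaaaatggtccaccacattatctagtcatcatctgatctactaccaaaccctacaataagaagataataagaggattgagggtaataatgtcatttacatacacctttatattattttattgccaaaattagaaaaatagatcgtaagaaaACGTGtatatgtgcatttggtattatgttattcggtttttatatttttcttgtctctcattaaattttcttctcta
TPS11: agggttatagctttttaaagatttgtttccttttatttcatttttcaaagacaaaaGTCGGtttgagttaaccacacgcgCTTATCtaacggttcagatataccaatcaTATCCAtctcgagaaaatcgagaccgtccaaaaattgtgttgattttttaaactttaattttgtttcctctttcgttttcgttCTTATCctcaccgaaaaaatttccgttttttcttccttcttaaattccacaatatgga
In these letters TPS5 had no match to any of the 6 motifs. TPS8 held GATAAG at 113 and 105 bases before the start, and TPS9 held ACGTG at 76 bases. TPS11 held CCGAC at 194 bases, read from the reverse strand. It also held TATCCA at 141 bases and, on the reverse strand, GATAAG at 170 and 58. Over windows of the same length before 27443 genes, CCGAC was found in 12%, CACGTG in 6.49%, ACGTG in 22.9%, TATCCA in 13.6%, AAAATATCT in 2.36% and GATAAG in 12.3%. Among the 8 members CCGAC was found in 1, CACGTG in 1, ACGTG in 2, TATCCA in 3 and GATAAG in 3, and AAAATATCT in 0. TPS1, TPS5 and TPS7 held none of the 6. These matches describe the letters and were not tested as binding sites.

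Total counts per library ran from 17861514 to 31046237, and the smallest count of any member in any library was 8, so none was at or below the floor of 3 counts. The 3 leaf markers, the Rubisco small subunit gene RBCS1A, LHCB1.1 and CA1, were high in every library, with a summed level of 19273 to 52777 CPM, counts set against library size after TMM scaling. They did not keep 1 level in the cold. CA1, a carbonic anhydrase gene, fell in all 6 cold comparisons by a log2 change of -2.43 to -1.97. RBCS1A fell in 4 by a log2 change of -0.79 to -0.58, in both accessions at 28 days and in N14 at 35 days and in the second cold. LHCB1.1, of the light-harvesting complex, fell at 28 days in N14 (-0.86 ± 0.23, adjusted p = 0.0027) and rose in the second cold in Col-0 (0.61 ± 0.23, adjusted p = 0.037). The part of these changes in the cold results was not tested. Flower markers summed to at most 10.0 CPM and seed markers to at most 19.3 CPM. Of the 4 root markers, COBL9 was at 0 in 26 libraries and LRX1 in 32. PYK10, a beta-glucosidase of root endoplasmic reticulum bodies, was lower in all 6 cold comparisons. CASP1 went the other way in the first cold at 35 days in Col-0, with a log2 change of 2.42 ± 0.92 (adjusted p = 0.029). Its other cold differences ran from -2.95 to 1.95 and did not pass. Over all libraries the median was 11.4 CPM for PYK10 and 0.127 CPM for CASP1, so the root sum follows mainly PYK10. The root sum ran from 10.2 to 133 CPM in the warm groups and from 0.764 to 14.8 CPM in the cold groups, and its part in the cold results was not tested.

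Set against the length of their annotated exons, the members differed widely in level and changed places in the cold. In 28-day Col-0 controls TPS11 stood highest at 24.8 CPM per kb, followed by TPS8 at 22.9 and TPS7 at 22.1, and TPS5 stood lowest at 3.48 CPM per kb. TPS11 held first place in all 6 warm groups. After the first cold at 28 days in Col-0 the order began with TPS7 at 24.7 and TPS5 at 23.4 CPM per kb, and TPS9 closed it at 0.508. TPS5 or TPS7 held first place in all 6 cold groups and TPS9 the last. Among 11 neighbours in the order of the 12 group means, libraries did not overlap between 3 for TPS11, 2 each for TPS9 and TPS10, 1 each for TPS1, TPS5 and TPS8, and 0 for TPS6 and TPS7. The same count over all genes is not given here, and no result about the members is read from it. TPS2 and TPS3 were listed at 0 in all 36 libraries and TPS4, a class I relative, reached at most 5 counts, so they were not tested.

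**Figure D1:**
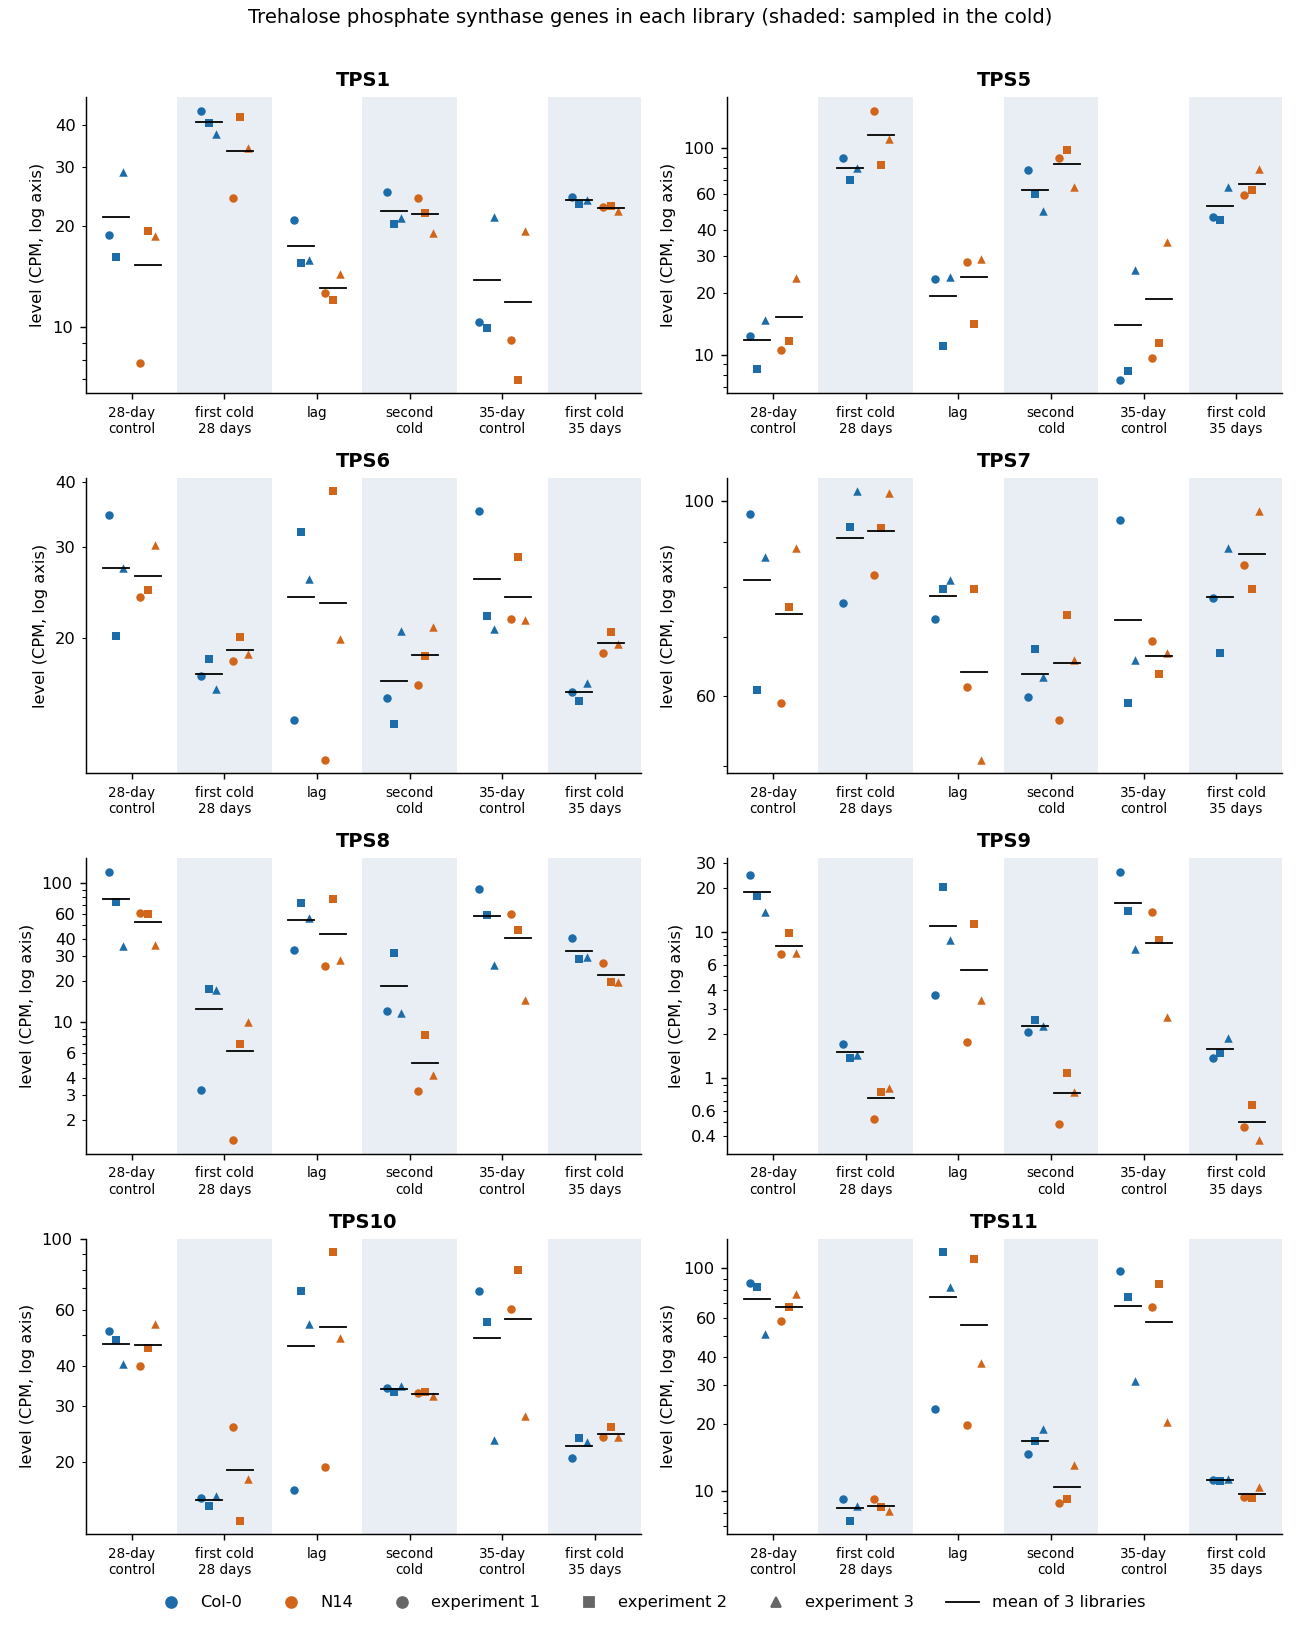
Level of each of the 8 genes in all 36 libraries, in CPM on a log axis, by condition (shaded where sampled in the cold), with accession as colour, experiment as symbol and the mean of 3 libraries as a line. TPS5 lies at 7.59 to 35.0 CPM in the 18 warm libraries and at 44.7 to 151 CPM in the 18 cold ones, and TPS11 at 19.9 to 119 CPM and 7.36 to 19 CPM.

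In each accession 3 cold comparisons were made: the first cold at 28 days against C28, the first cold at 35 days against C35, and the second cold against the lag. TPS5 rose in all 6, TPS9 and TPS11 fell in all 6, and TPS7 passed the test in 0 of 6. TPS1 rose and TPS10 fell in both first cold treatments of both accessions. TPS8 fell in 3 comparisons and TPS6 in 2. By edgeR's quasi-likelihood F test with Benjamini-Hochberg adjustment over all 20263 genes, called at an adjusted p under 0.05, 7 members passed in the first cold at 28 days in Col-0 (2 higher, 5 lower) and 6 in N14 (2 higher, 4 lower). Of all genes tested, 54.7% and 56.8% passed there. In the first cold at 35 days 6 passed in Col-0 (2 higher, 4 lower) and 5 in N14 (2 higher, 3 lower), against 51.8% and 54% of all genes. In the second cold 3 passed in Col-0 (1 higher, 2 lower) and 4 in N14 (1 higher, 3 lower), against 40.2% and 46.6%. Whether the share of the 8 members differed from that of all genes was not tested. Where groups are said below not to overlap, the share of all genes of which this holds is not given. Leaving out 1 library or experiment gave 5 to 6 called members at 28 days in each accession. At 35 days it gave 3 to 6 in Col-0 and 3 to 5 in N14. In the second cold it gave 0 to 5 in Col-0 and 1 to 5 in N14. The second-cold calls of TPS5, TPS9 and TPS11 were lost in both accessions without experiment 2 as a whole. The median log2 change of the members was -1.15 and -0.89 in the first cold at 28 days (Col-0 and N14), -0.78 and -0.58 at 35 days and -0.49 and -0.52 in the second cold, and the median over all genes tested lay between -0.08 and 0.00 in the 6. The p-values measure the spread between pools from 3 experiments, estimated once over warm and cold groups together. In whole rosettes fewer cells of a type and less RNA per cell cannot be told apart.

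**Figure D2:**
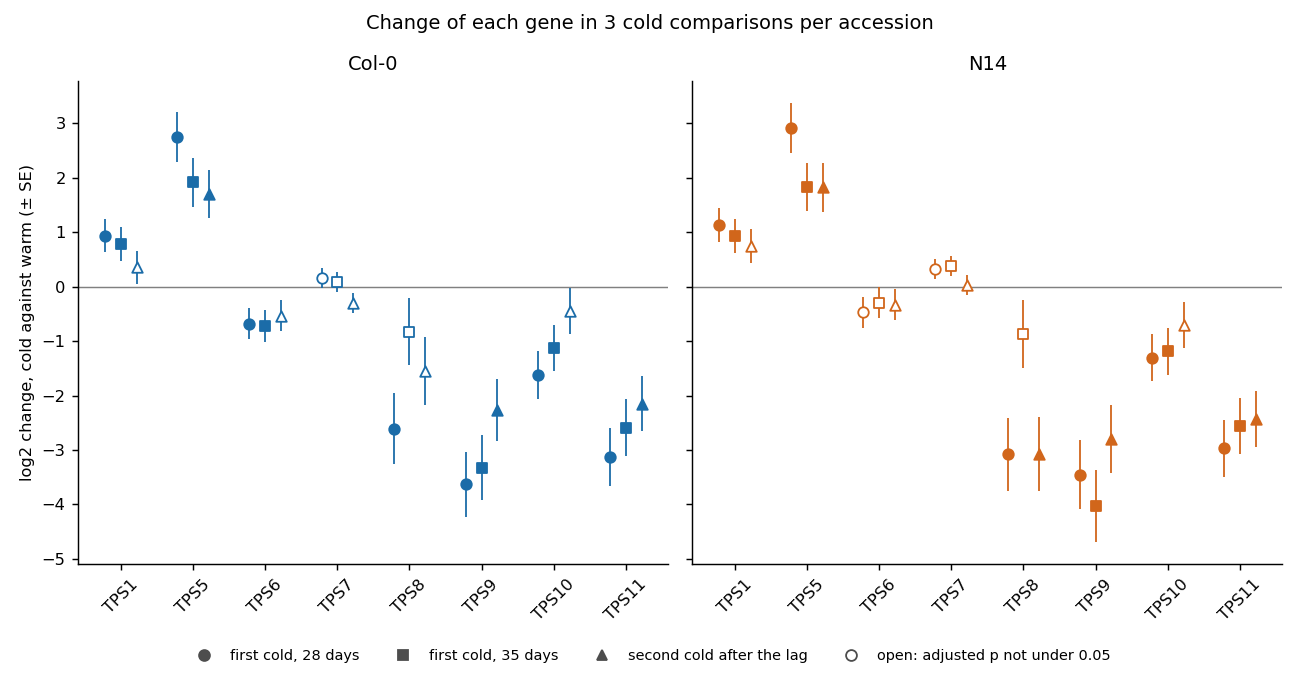
Log2 change of each gene (cold against warm, ± SE from edgeR) in the 3 cold comparisons of Col-0 (left) and N14 (right), filled where the adjusted p was under 0.05. TPS5 lies between 1.69 and 2.91 in all 6, and TPS9 between -4.03 and -2.27.

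TPS1, the main synthase, rose modestly in the first cold. Its level, listed here and below in the order of experiments 1, 2 and 3, was 18.9, 16.3 and 29.0 CPM in Col-0 controls of 28 days and 44.2, 40.7 and 37.8 CPM after the cold. In N14 it was 7.81, 19.4 and 18.7 CPM and then 24.2, 42.3 and 34.2 CPM. Each cold library stood above every control library of its accession, and the log2 change was 0.94 ± 0.31 (adjusted p = 0.012) in Col-0 and 1.13 ± 0.31 (adjusted p = 0.0031) in N14. At 35 days TPS1 went from 10.4, 9.95 and 21.3 to 24.4, 23.4 and 23.9 CPM in Col-0 and from 9.18, 6.99 and 19.4 to 22.9, 22.9 and 22.3 CPM in N14. The groups did not overlap, experiment 3 gave the highest control in both accessions, and the log2 changes were 0.79 ± 0.31 (adjusted p = 0.036) and 0.93 ± 0.31 (adjusted p = 0.014). Without the control library of experiment 3 they came to 1.23 in Col-0 and 1.49 in N14. The Col-0 call at 28 days was lost without the control library of experiment 2 (adjusted p = 0.069). It was also lost without experiment 1 or experiment 2 as a whole (adjusted p = 0.081 and 0.13). The calls at 35 days were lost without any one of 5 of the 6 libraries in Col-0 (adjusted p from 0.061 to 0.17) and of 2 of the 6 in N14 (adjusted p from 0.075 to 0.1). Without experiment 1 or experiment 2 as a whole they were lost in Col-0 (adjusted p = 0.2 and 0.25) and in N14 (0.1 and 0.21). In the second cold TPS1 did not pass, with 0.35 ± 0.31 (adjusted p = 0.39) in Col-0 and 0.74 ± 0.31 (adjusted p = 0.053) in N14, where it passed under DESeq2 (adjusted p = 0.044) and with the experiment as a replicate block (0.039). TPS1 shares 429 bases with a noncoding RNA gene and 99 with a coding gene on the opposite strand, and the sources used here do not give whether counting used the strand.

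TPS5, a class II gene, rose in every cold comparison. In Col-0 it stood at 12.3, 8.55 and 14.7 CPM in the 28-day controls and at 89.6, 69.8 and 79.7 CPM after the cold, and in N14 at 10.5, 11.7 and 23.6 and 151, 82.4 and 111 CPM. Every cold library stood far above every control, with a log2 change of 2.75 ± 0.46 (adjusted p = 1.4e-05) in Col-0, a 6.73-fold rise, and 2.91 ± 0.46 (adjusted p = 5.7e-06) in N14, a 7.52-fold rise. At 35 days it went from 7.59, 8.36 and 25.6 to 46.6, 44.7 and 65.1 CPM in Col-0 and from 9.64, 11.4 and 35.0 to 58.9, 62.6 and 79.0 CPM in N14. Experiment 3 gave both the highest control and the highest cold library, and the groups still did not overlap. The log2 changes were 1.91 ± 0.45 (adjusted p = 0.00074) and 1.83 ± 0.44 (adjusted p = 0.001). The second cold took it from 23.2, 11 and 23.8 to 77.9, 59.7 and 49.6 CPM in Col-0 and from 28.1, 14.0 and 29.2 to 89.0, 97.4 and 65.1 CPM in N14, with log2 changes of 1.69 ± 0.44 (adjusted p = 0.003) and 1.82 ± 0.44 (adjusted p = 0.0014). These calls held without any single library of the comparison, and those of the second cold were lost without experiment 2 as a whole (adjusted p = 0.064 and 0.056). In the order of the 12 group means, all 6 cold groups came before all 6 warm ones, and the only neighbours whose libraries did not overlap were the lowest cold group, C35P3 Col-0 at 52.1 ± 11.3 CPM (SD, n = 3), and the highest warm group, C28P3L7 N14 at 23.8 ± 8.44. TPS5 shares 128 bases with a coding gene on the opposite strand.

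TPS11, another class II gene, fell in every cold comparison. It stood at 86.1, 82.7 and 50.6 CPM in 28-day Col-0 controls and at 9.25, 7.36 and 8.56 CPM after the cold, and in N14 at 57.9, 67.2 and 76.7 and 9.21, 8.50 and 8.12 CPM. The 6 cold libraries lay within a narrow band far below every control. The log2 change was -3.12 ± 0.53 (adjusted p = 1.6e-05) in Col-0, 8.72-fold lower, and -2.97 ± 0.52 (adjusted p = 2.6e-05) in N14, 7.81-fold lower. At 35 days it went from 97.2, 74.4 and 31.1 to 11.2, 11.1 and 11.4 CPM in Col-0 and from 66.9, 84.8 and 20.4 to 9.41, 9.31 and 10.4 CPM in N14. The controls spread widely, with experiment 3 lowest in both accessions, and the cold libraries hardly at all. The log2 changes there were -2.59 ± 0.52 (adjusted p = 0.00014) and -2.56 ± 0.52 (adjusted p = 0.00016). During the second cold TPS11 went from 23.3, 119 and 82.3 to 14.8, 16.9 and 19 CPM in Col-0 and from 19.9, 109.9 and 37.5 to 8.88, 9.23 and 13.1 CPM in N14. Experiment 1 was the lowest of the lag libraries in both accessions and still stood above every second-cold library. The log2 changes were -2.15 ± 0.50 (adjusted p = 0.0012) and -2.43 ± 0.51 (adjusted p = 0.00035), the latter -1.46 without the lag library of experiment 2. Without experiment 2 as a whole both calls of the second cold were lost (adjusted p = 0.058 and 0.093).

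TPS9, also of class II, had the largest falls of the 8 in both first cold treatments. It went from 24.8, 17.7 and 13.7 CPM in 28-day Col-0 controls to 1.71, 1.38 and 1.43 CPM after the cold, and in N14 from 7.06, 9.88 and 7.22 to 0.524, 0.809 and 0.855 CPM. All cold libraries lay below all controls of their accession, and N14 lay below Col-0 in both conditions. The log2 change was -3.63 ± 0.60 (adjusted p = 1.1e-05) in Col-0 and -3.46 ± 0.63 (adjusted p = 4e-05) in N14, 12.4-fold and 11-fold lower. At 35 days it went from 26.1, 14.0 and 7.74 to 1.37, 1.48 and 1.90 CPM in Col-0 and from 13.7, 8.83 and 2.62 to 0.467, 0.652 and 0.375 CPM in N14, with log2 changes of -3.33 ± 0.60 (adjusted p = 3.7e-05) and -4.03 ± 0.66 (adjusted p = 1.3e-05). The groups did not overlap, although the control of experiment 3 was again the lowest. The second cold took it from 3.70, 20.4 and 8.85 to 2.06, 2.51 and 2.26 CPM in Col-0 and from 1.78, 11.4 and 3.44 to 0.490, 1.09 and 0.802 CPM in N14. Experiment 2 gave by far the highest lag library in both accessions. The log2 changes were -2.27 ± 0.57 (adjusted p = 0.002) and -2.81 ± 0.62 (adjusted p = 0.00059). Without that library they came to -1.45 in Col-0, where the call was lost (adjusted p = 0.05), and -1.70 in N14, and without experiment 2 as a whole neither passed (adjusted p = 0.11 and 0.057).

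TPS8, the class II gene closest in sequence to TPS9, with 81.2% of aligned coding bases identical, fell after the first cold at 28 days and less evenly elsewhere. It went from 121, 73.2 and 35.6 to 3.25, 17.4 and 17.2 CPM in Col-0 and from 60.8, 60.3 and 35.9 to 1.42, 6.99 and 10.15 CPM in N14. Experiment 1 had the highest controls and by far the lowest cold libraries. The log2 changes were -2.61 ± 0.65 (adjusted p = 0.0014) and -3.08 ± 0.67 (adjusted p = 0.00033), and without experiment 1 the Col-0 change came to -1.66 (adjusted p = 0.031). At 35 days TPS8 went from 90.0, 58.8 and 25.9 to 40.4, 28.6 and 29.3 CPM in Col-0 and from 60.1, 46.4 and 14.4 to 26.8, 19.6 and 19.5 CPM in N14. Controls and cold libraries overlapped, with log2 differences of -0.83 ± 0.62 (adjusted p = 0.27) and -0.87 ± 0.62 (adjusted p = 0.24) that did not pass. In the second cold it went from 25.6, 76.3 and 28.2 to 3.20, 8.07 and 4.16 CPM in N14, a log2 change of -3.08 ± 0.68 (adjusted p = 0.00053), and from 33.3, 72.5 and 56.0 to 12.1, 31.3 and 11.7 CPM in Col-0. The Col-0 groups did not overlap, and the difference of -1.55 ± 0.63 (adjusted p = 0.05) just missed the threshold in edgeR and passed with DESeq2's test (adjusted p = 0.037) and with the replicate block (0.031). Whether the TPS8 response at 28 days differed from that at 35 days was not tested. The longest run of bases that the TPS8 and TPS9 transcripts share is 32, and their summed counts were close in the STAR, TopHat and kallisto tables, at 30071, 29937 and 30416 for TPS8 and 5361, 5312 and 5334 for TPS9.

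TPS10, a further class II gene, fell in the first cold, from 51.4, 48.1 and 40.6 to 15.4, 14.5 and 15.6 CPM in Col-0 and from 39.9, 45.4 and 54.2 to 25.8, 13.1 and 17.7 CPM in N14. No library of the cold groups reached a control, and the log2 changes were -1.62 ± 0.43 (adjusted p = 0.0024) and -1.30 ± 0.43 (adjusted p = 0.011). At 35 days it went from 68.7, 55.0 and 23.4 to 20.5, 23.8 and 23.0 CPM in Col-0, where the control of experiment 3 fell among the cold libraries, and from 60.4, 79.8 and 27.9 to 23.9, 25.8 and 23.9 CPM in N14. The log2 changes were -1.13 ± 0.43 (adjusted p = 0.028) and -1.19 ± 0.43 (adjusted p = 0.02), and these calls were lost without any one of 5 of the 6 libraries in Col-0 (adjusted p from 0.055 to 0.16) and of 4 of the 6 in N14 (adjusted p from 0.05 to 0.13). The N14 call at 28 days was lost without the cold library of experiment 2 (adjusted p = 0.06). It was also lost without experiment 2 or experiment 3 as a whole (adjusted p = 0.097 and 0.11). At 35 days the Col-0 call was lost without experiment 1 or experiment 2 as a whole (0.14 and 0.13), and the N14 call without experiment 2 (0.2). In the second cold all 6 libraries stood between 32.1 and 34.6 CPM, whereas the lag libraries ran from 16.3 to 91.0 CPM. The log2 differences of -0.45 ± 0.42 (adjusted p = 0.42) and -0.70 ± 0.42 (adjusted p = 0.18) did not pass, and in N14 the difference passed without the lag library of experiment 1 (-1.10, adjusted p = 0.032).

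TPS6 and TPS7, both of class II, passed in the fewest cold comparisons. TPS6 went from 34.5, 20.2 and 27.3 to 16.9, 18.3 and 16.0 CPM in the first cold at 28 days in Col-0, with a log2 change of -0.68 ± 0.29 (adjusted p = 0.046), and at 35 days from 35.1, 22 and 20.8 to 15.8, 15.1 and 16.4 CPM, with -0.72 ± 0.29 (adjusted p = 0.037). Those groups did not overlap, but the 28-day call was lost without any one of 5 of the 6 libraries (adjusted p from 0.07 to 0.21) and the 35-day call without any one of 4 (adjusted p from 0.07 to 0.25), with a log2 change of -0.44 (adjusted p = 0.25) without the control of experiment 1. Both calls were also lost without experiment 1 or experiment 3 as a whole (adjusted p from 0.095 to 0.24). The other TPS6 differences, between -0.54 and -0.29, did not pass, and TPS6 shares 207 bases with a coding gene on the opposite strand. TPS7 stayed between 50.8 and 103 CPM in all 36 libraries, a range of 2.02-fold, the narrowest of the 8. Its log2 differences in the 6 cold comparisons lay between -0.29 and 0.39 and did not pass. The 95% interval of the difference at 28 days was -0.22 to 0.54 in Col-0 and -0.06 to 0.69 in N14.

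The lag of 7 days at 20 °C was compared with the end of the first cold to ask how far the members moved back. TPS5 fell again in both accessions, by a log2 change of -2.04 ± 0.45 in Col-0 (adjusted p = 0.00032) and -2.28 ± 0.45 in N14 (adjusted p = 9.7e-05). TPS1 fell by a log2 change of -1.23 ± 0.31 (adjusted p = 0.0015) and -1.36 ± 0.32 (adjusted p = 0.00059). TPS11 rose by 3.16 ± 0.53 (adjusted p = 1.2e-05) and 2.70 ± 0.52 (adjusted p = 7.4e-05), TPS9 by 2.86 ± 0.59 (adjusted p = 0.00017) and 2.92 ± 0.63 (adjusted p = 0.00028), TPS8 by 2.1 ± 0.64 (adjusted p = 0.0068) and 2.81 ± 0.67 (adjusted p = 0.00074), and TPS10 by 1.61 ± 0.43 (adjusted p = 0.0024) and 1.5 ± 0.43 (adjusted p = 0.0041). The groups overlapped for TPS10 in N14 and for none of the other called changes, and the share of all genes without overlap is not given here. For the 4 that rose, the lag libraries of experiment 2 were the highest in both accessions. Without that N14 library the TPS10 change came to 0.85 (adjusted p = 0.097), TPS11 to 1.73 and TPS9 to 1.81. Without experiment 2 as a whole TPS8 was lost in both accessions (adjusted p = 0.062 and 0.054), and so was TPS10 (0.09 and 0.34). TPS7 fell in N14 by a log2 change of -0.54 ± 0.18 (adjusted p = 0.015), a call lost without either N14 library of experiment 3, and not in Col-0 (-0.22 ± 0.18, adjusted p = 0.32). TPS6 did not pass in either. In all, 6 members passed in Col-0 (4 higher, 2 lower) and 7 in N14 (4 higher, 3 lower), against 56.4% and 57.7% of all genes. Flower markers moved with this comparison in Col-0, where their sum was 0.694 to 1.06 CPM at the end of the first cold and 4.45 to 10.0 CPM after the lag. All 4 were called higher there, SEP3 by 11.5-fold, AP3 by 12.9-fold, AG by 2.83-fold and PI by 30.2-fold, and 0 of 4 in N14, and their part was not tested.

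**Figure D3:**
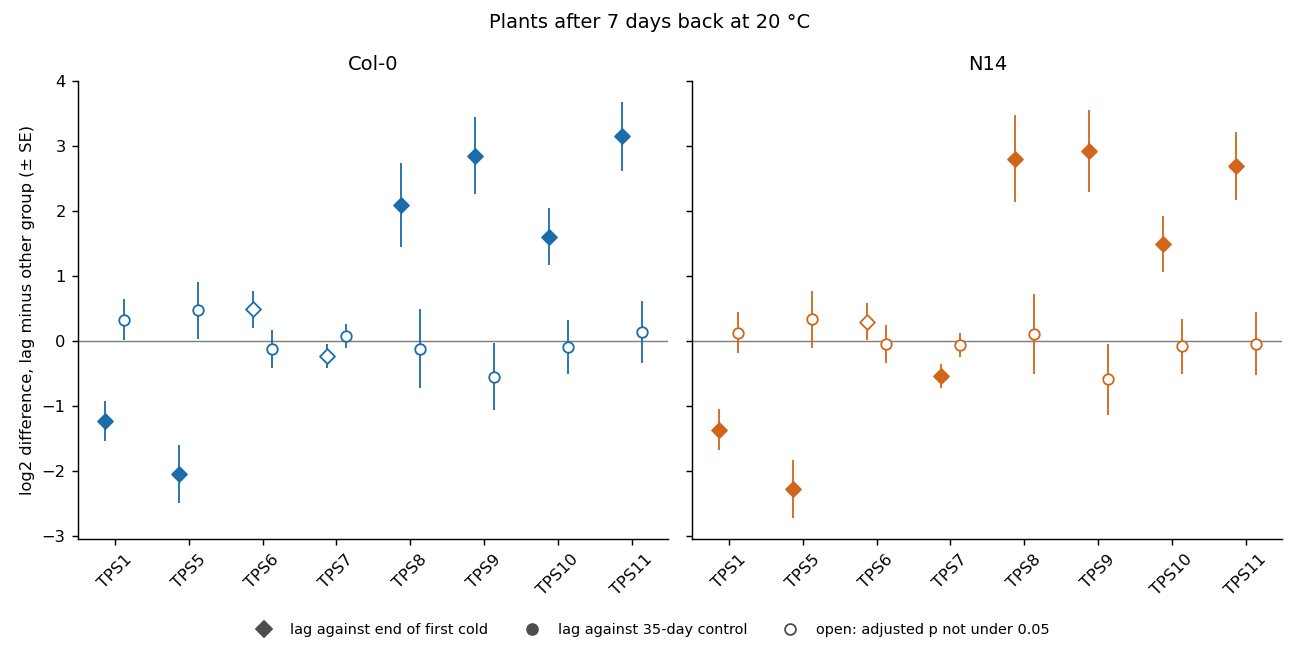
Log2 difference (± SE) of lag plants from plants at the end of the first cold (diamonds) and from 35-day controls (circles), in Col-0 (left) and N14 (right), filled where the adjusted p was under 0.05. Against the end of cold TPS5 and TPS1 lie below 0 and TPS8 to TPS11 above it, and against the 35-day controls the largest difference is -0.59, for TPS9 in N14.

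Against the 35-day controls, which had never been cold and were 3 days younger, 0 members passed after the lag in either accession by edgeR, and 0 had an unadjusted p under 0.05. Over all genes 0% passed in Col-0 and 0% in N14, where 670 and 919 genes had an unadjusted p under 0.05 and DESeq2 called 2 and 56 genes, none of them a member. TPS5 differed by 0.48 ± 0.44 on the log2 scale in Col-0 and 0.34 ± 0.44 in N14, and TPS9 by a log2 change of -0.54 ± 0.52 and -0.59 ± 0.54. The other 6 members lay between -0.12 and 0.33 in Col-0 and between -0.07 and 0.13 in N14. The intervals of these 6 are not given here, and no full return is read from their differences. The lag and control libraries of all 8 members overlapped in both accessions. The 95% interval for TPS9 ran from -1.61 to 0.53 in Col-0 and from -1.69 to 0.52 in N14, and that for TPS5 from -0.41 to 1.38 and from -0.55 to 1.23, so that a lasting 2-fold difference lies inside them for both genes. The lag libraries enter this comparison, that with the end of cold and that of the second cold, so the 3 are not independent.

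Plants in their second cold were set against plants in their first that were 3 days younger, C28P3L7T3 against C35P3, to ask whether an earlier cold changed the response. No member passed in edgeR, with 0 of 8 in each accession, against 0% of all genes in Col-0 and 0.00494% (1 gene) in N14. DESeq2 called 1 gene in Col-0 and 217 in N14 over all genes, none of them a member. At an unadjusted p under 0.05 there were 0 members in Col-0 and 2 in N14, against 4.62% and 8.71% of all genes. The 2 were TPS8, at 26.8, 19.6 and 19.5 CPM in the first and 3.20, 8.07 and 4.16 CPM in the second cold (-2.09 ± 0.66, adjusted p = 0.19), and TPS7 (-0.41 ± 0.18, adjusted p = 0.49). In both the libraries of the groups did not overlap. In Col-0 TPS8 stood at 40.4, 28.6 and 29.3 and 12.1, 31.3 and 11.7 CPM, overlapping (-0.83 ± 0.62, adjusted p = 1). TPS9, TPS10 and TPS11 were higher in every second-cold library of Col-0 than in every first-cold one, by 0.52, 0.59 and 0.59 on the log2 scale (adjusted p = 1.0 for each). In N14 the same held for TPS10, at 23.9, 25.8 and 23.9 CPM in the first and 32.9, 33.1 and 32.1 CPM in the second cold (0.41 ± 0.42, adjusted p = 1), while TPS9 (0.64 ± 0.73, adjusted p = 1) and TPS11 (0.10 ± 0.50, adjusted p = 1) overlapped. The log2 differences of the other members ran from -0.29 to 0.26 in Col-0 and from -0.08 to 0.33 in N14, none of them passing. The share of all genes whose libraries did not overlap in this comparison is not given here. No result about the members is therefore read from the libraries that did not overlap. The fit shared 1 estimate of spread over all 12 groups, warm ones included. The SD of log2 CPM of TPS10 had a median of 0.06 in cold and 0.80 in warm groups. The SE of these cold-against-cold differences thus rests in part on warm libraries, and a high adjusted p does not show that the groups were equal.

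Controls of 35 days were set against controls of 28 days, which also differed in rosette number. Both edgeR and DESeq2 called 0 members in either accession, and edgeR called 3.41% of all genes in Col-0 and 0.0197% in N14. No member had an unadjusted p under 0.05, against 20.8% of all genes in Col-0 and 9.25% in N14. The largest difference was that of TPS1 in Col-0, -0.63 ± 0.31 (adjusted p = 0.25). The other members ran from -0.40 to 0.23 in Col-0, and all 8 from -0.38 to 0.29 in N14. The flower markers, which summed to 0.886 to 1.00 CPM in C28 and 5.06 to 8.15 CPM in C35 of Col-0, were called higher in the older plants in 4 of 4 in Col-0 and 0 of 4 in N14, and their part was not tested.

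**Figure D4:**
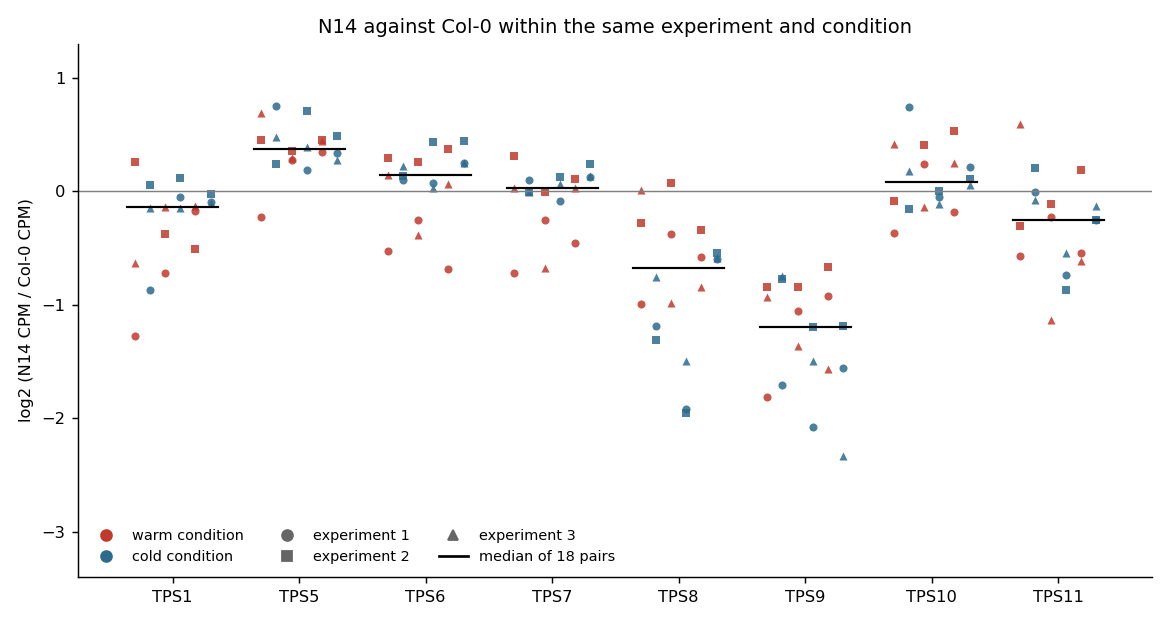
Log2 ratio of the N14 to the Col-0 level for each gene in each of 18 pairs of libraries from the same experiment and condition, by condition (red warm, blue cold) and experiment (symbol), with the median of the 18 as a line. TPS9 lies below 0 in 18 of 18 pairs and TPS8 in 16, and TPS5 lies above 0 in 17. The share of all genes with such counts is not given here.

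The accessions differed most in TPS9 and TPS8. In the cold groups TPS9 stood at 1.37 to 2.51 CPM in the 9 Col-0 libraries and at 0.375 to 1.09 CPM in the 9 N14 libraries, with no overlap. Within the same experiment and condition TPS9 was lower in N14 in 18 of 18 pairs, by 1.59-fold to 5.05-fold with a median of 2.29-fold. TPS8 was lower in N14 in 16 of 18 pairs, and TPS5 was higher in 17 of 18 with a median ratio of 1.29. The share of all genes with such pair counts, or with no overlap between accessions in the cold, is not given here. These counts are therefore not read as particular to the members. In the 6 comparisons by condition, however, 0 members passed in edgeR, against 12.3% of all genes in C28, 11.1% in C28P3, 14% in C35, 14.1% in C35P3, 15.7% in C28P3L7 and 14% in C28P3L7T3. An unadjusted p under 0.05 was found for TPS9 in C28, C35P3 and C28P3L7T3 and for TPS8 in C28P3L7T3. At that threshold the share of all genes ran from 21.4% in C28P3 to 27.3% in C28P3L7. DESeq2 called TPS9 in C35P3 (adjusted p = 0.04) and TPS8 in C28P3L7T3 (0.039). In C28P3L7 TPS9 passed in edgeR without the N14 library of experiment 2 (-2.09, adjusted p = 0.017). The largest differences were those of TPS8 in C28P3L7T3 (-1.84 ± 0.65, adjusted p = 0.059) and of TPS9 in C35P3 (-1.63 ± 0.69, adjusted p = 0.12). TPS1, TPS6, TPS7, TPS10 and TPS11 lay between -0.70 and 0.32 in the 6 comparisons, and TPS5 between 0.30 and 0.53.

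Col-0 and N14 libraries of 1 experiment deviated together from their group means, with every correlation over 0.1, in 5 of the 6 conditions, the exception being C28, where the lowest was 0.07. With experiment and condition as a block, a fit chosen after the values were seen, the calls by condition changed. TPS9 was then lower in N14 in all 6 conditions, by a log2 change of -1.62 to -1.02 (adjusted p from 0.00021 to 0.016). TPS8 was lower in C28P3, C35, C35P3 and C28P3L7T3, by a log2 change of -1.80 to -0.57 (adjusted p from 9e-07 to 0.023), TPS5 higher in the same 4 by 0.37 to 0.49 (adjusted p from 0.0097 to 0.044), and TPS11 lower in C28P3L7T3 by a log2 change of -0.71 (adjusted p = 0.014). TPS1, TPS6, TPS7 and TPS10 passed in 0 of 6. The share of all genes that passed in this fit was 21.6% in C28, 19.4% in C28P3, 23.8% in C35, 24.6% in C35P3, 27.3% in C28P3L7 and 24.1% in C28P3L7T3.

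Averaged over the 6 conditions, a comparison added after TPS9 had been seen to be lower throughout, TPS9 differed by a log2 change of -1.22 ± 0.24 (adjusted p = 0.00015) and TPS8 by a log2 change of -0.81 ± 0.26 (adjusted p = 0.011) in N14 against Col-0, and 43.5% of all genes passed. The TPS8 call was lost without experiment 2 (adjusted p = 0.074), and the TPS9 change stayed between -1.44 and -1.09 without any one experiment. When the accessions were compared within each experiment and condition, which also was chosen after the values were seen, 5 members and 55.3% of all genes passed. They were TPS9 (-1.25 ± 0.11, adjusted p = 3.6e-09), TPS8 (-0.81 ± 0.08, adjusted p = 1.6e-08), TPS5 (0.39 ± 0.06, adjusted p = 5.5e-06), TPS11 (-0.30 ± 0.08, adjusted p = 0.0047) and TPS1 (-0.27 ± 0.08, adjusted p = 0.008). These tests describe a pattern already seen and lend it no independent support, and sequence differences between N14 and the reference genome, which can change how many reads are assigned, were not tested. Flower markers summed to 4.33 to 10.0 CPM in the Col-0 groups from 35 days on and to at most 1.07 CPM in every N14 group, and their part was not tested. For the cold responses themselves the difference between accessions was tested as an interaction, and 0 members passed in edgeR and in DESeq2. Of all genes, edgeR called 0.301% at 28 days, 0.266% at 35 days and 0.262% in the second cold. No member had an unadjusted p under 0.05, against 7.09%, 8.24% and 8.26% of all genes. The largest interaction was that of TPS8 in the second cold, -1.53 ± 0.89 (adjusted p = 0.7). The differences of all 8 members ran from -0.47 to 0.32 at 28 days and from -0.70 to 0.43 at 35 days, and those of the other 7 in the second cold from -0.54 to 0.39.

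By the median over 6 groups, experiments differed more in warm than in cold plants, though not in every group. The SD of log2 CPM over the 3 experiments had a median of 0.80 in the 6 warm groups and 0.06 in the 6 cold groups for TPS10, 0.98 and 0.13 for TPS11, 1.04 and 0.29 for TPS9, and 0.52 and 0.14 for TPS1. For TPS8 it was 0.88 and 0.74. The median over all tested genes was 0.29 in warm and 0.17 in cold groups. In the lag groups experiment 1 was the lowest and experiment 2 the highest for TPS8, TPS9, TPS10 and TPS11 in both accessions, with TPS11 at 23.3, 119 and 82.3 CPM in Col-0 and 19.9, 109.9 and 37.5 CPM in N14. In the 35-day controls experiment 3 was the lowest for these 4 genes and the highest for TPS5 and TPS1 in both accessions. The accessions did not share the order in every group: in C28 the lowest experiment was 3 and the highest 1 for TPS10 and TPS11 in Col-0, and the reverse in N14. Of the 6 conditions, the same experiment was the lowest in both accessions in 2 (TPS1 and TPS6) to 4 (TPS5, TPS7, TPS8, TPS10 and TPS11), and the same was the highest in 2 (TPS1 and TPS10) to 5 (TPS5 and TPS8). The labels give no sampling time within the day or date for these groups, and what set the experiments apart was not tested.

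**Figure D5:**
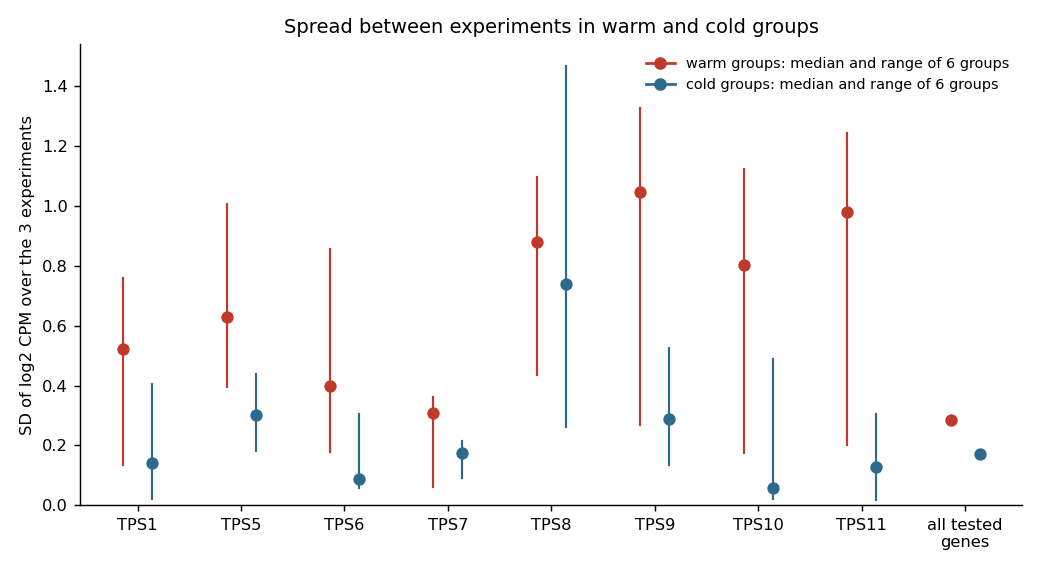
SD of log2 CPM over the 3 experiments for each gene, as the median (point) and range (line) over 6 warm groups (red) and 6 cold groups (blue), with the median gene of the 20263 tested at the right. For TPS11 the median is 0.98 in warm and 0.13 in cold groups, and for all genes 0.29 and 0.17.

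Across the 36 libraries TPS9 and TPS11 varied together (Pearson r of log2 CPM = 0.94) and TPS5 opposite to both (r = -0.92 with TPS9 and -0.93 with TPS11), values that describe libraries which share groups, experiments and depth. Of 11464 other genes, all averaging 3 or more in log2 CPM, the most alike to TPS11 were AKINBETA1 (AT5G21170, r = 0.97), the gene of the SnRK1 beta 1 subunit, AT5G57655 (r = 0.97) and AT5G22920 (r = 0.97). The most alike to TPS5 were AT5G55070 (r = 0.98), BIP2 (AT5G42020, r = 0.97), an endoplasmic reticulum chaperone, and AT4G16660 (r = 0.97). For TPS9 they were AT3G61210 (r = 0.95), AT1G06760 (r = 0.95) and MC3 (r = 0.95), for TPS8 AT3G19850, AT5G19190 and AT5G44680 (r from 0.93 to 0.94), and for TPS10 AT2G41710, ML2 and CSY3 (r from 0.91 to 0.92). For TPS1 they were ASN3, AT5G15610 and MRL1 (r from 0.93 to 0.94), for TPS6 ACX2, BET10 and ML2 (r from 0.83 to 0.89), and for TPS7 AT3G12590, XI-I and ARABIDILLO-1 (r from 0.80 to 0.87).

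The genes around trehalose 6-phosphate were followed through the same 6 cold comparisons. Of 10 trehalose phosphate phosphatase genes, which remove the phosphate, 7 were tested and 2 to 3 passed in each comparison, against 40.2% to 56.8% of all genes. Their median log2 change ran from -0.54 to 0.60, and that over all genes from -0.08 to 0.00. TPPE rose in all 6, from 10.7 ± 2.80 to 18.5 ± 2.03 CPM (SD, n = 3) at 28 days in Col-0, a log2 change of 0.80 ± 0.25 (adjusted p = 0.0096), and from 10.4 ± 2.92 to 42.0 ± 5.53 CPM at 35 days in N14, a change of 2.01 ± 0.26 (adjusted p = 4e-07). TPPB fell at 28 days in both accessions, by a log2 change of -2.01 ± 0.47 (adjusted p = 0.00066) and -1.79 ± 0.44 (adjusted p = 0.001). TPPI, at a very low level, rose in N14 at 35 days, from 0.217 ± 0.0920 to 0.581 ± 0.154 CPM, and in the second cold, from 0.0681 ± 0.0260 to 0.489 ± 0.227 CPM. TPPA fell in the N14 second cold (-1.30 ± 0.42, adjusted p = 0.013). The trehalase gene TRE1, whose enzyme splits trehalose, fell in N14 in both first cold treatments (-1.28 ± 0.42, adjusted p = 0.011, and -1.46 ± 0.42, adjusted p = 0.0044), and its Col-0 differences there, -0.53 ± 0.40 (adjusted p = 0.27) and -0.94 ± 0.41 (adjusted p = 0.055), did not pass.

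SnRK1 subunit genes moved in both directions, with 7 of 8 tested and 2 to 5 passing in each comparison, against 40.2% to 56.8% of all genes. Their median log2 change ran from -0.34 to 0.08. KINBETA1, which encodes a regulatory beta subunit and is the gene most alike to TPS11 above, fell in all 6 by a log2 change of -3.93 to -2.78. At 28 days in Col-0 it went from 51.7 ± 20.8 to 3.50 ± 0.878 CPM (adjusted p = 1.3e-05). KINGAMMA fell in all 6 by a log2 change of -1.68 to -0.91, and KINBETA3 in the 3 N14 comparisons by a log2 change of -0.93 to -0.64. KIN10, a catalytic subunit gene, fell by a log2 change of -0.46 at 28 days and -0.34 at 35 days in Col-0, and KIN11, the other catalytic one, passed in 0 of 6. SNF4 rose in 5 of 6 by 0.28 to 0.42, and KINBETA2 rose in the 3 N14 comparisons by 0.39 to 0.51.

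Of 5 genes used as transcript markers of SnRK1 activity, raised when carbon is short, 4 fell in all 6 comparisons and BCAT2 in 2. Of all genes, 40.2% to 56.8% passed in these comparisons, in either direction. SEN1 fell by a log2 change of -7.56 to -4.87, DIN6 by a log2 change of -5.67 to -3.16, DIN10 by a log2 change of -5.33 to -3.99 and MCCA by a log2 change of -3.10 to -2.03. The median over the 5 ran from -4.84 to -3.16. Neither SnRK1 activity nor trehalose 6-phosphate was measured in these libraries. Of 9 bZIP factors of groups C and S1, among which are targets of SnRK1, 4 were tested, with a median log2 change from -1.29 to -0.82. BZIP63 fell in all 6 by a log2 change of -2.59 to -1.25, BZIP9 by a log2 change of -1.82 to -1.01 and BZIP25 by a log2 change of -0.86 to -0.48, and BZIP10 passed in 0.

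The other 5 bZIP factors and the phosphatase genes TPPF and TPPG were listed at 0 in all 36 libraries of the STAR table but not in the kallisto table, where each had a neighbouring identifier with the same counts in all 36 libraries, or in 19 of 36 for BZIP44. By edgeR on the kallisto counts, where 54%, 51.2% and 39.9% of 20358 genes passed in Col-0 (first cold at 28 days, at 35 days, second cold) and 56.3%, 53.3% and 46% in N14, BZIP1 fell in all 6 comparisons by a log2 change of -4.57 to -2.60 and BZIP2 by a log2 change of -1.46 to -1.12. TPPG rose in 5 of 6 by 1.03 to 2.08, at 28 days in Col-0 from 4.47 ± 0.47 to 18.8 ± 6.26 CPM (SD, n = 3). TPPF rose in 1, BZIP11 rose in 1, BZIP44 fell in 1 and BZIP53 passed in 0. All 8 members were counted alike in both tables, with library ratios of kallisto to STAR between 0.946 and 1.07.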

How the data were processed

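Gene expression was measured by RNA sequencing in 36 libraries, 3 in each of 12 groups, grouped by the accession and treatment in their labels. Per the labels' protocols, polyA RNA was sequenced with a directional kit. Per the submitters' processing notes the build was TAIR10, and the notes name STAR 2.5.2a, TopHat2 2.1.1 and kallisto 0.42.5 among other tools. The authors deposited 7 tables, of which 3 were used here. The STAR and TopHat tables hold the authors' raw counts per gene, in whole numbers. In the kallisto table the authors deposited estimated counts, 86.8% of them whole, and the rest were rounded here.

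The STAR counts were the basis of all main results. They were filtered with edgeR's filterByExpr, scaled by TMM and fitted with 1 mean per group over all 36 libraries in edgeR 4.0.16 (R 4.3.3). Each of 23 comparisons used edgeR's quasi-likelihood F test, with p adjusted over all genes by the Benjamini-Hochberg method, and called at an adjusted p under 0.05. SE was taken from the change and its F value. Correlations and SDs used log2 CPM with a prior count of 2. Alternatives were DESeq2 1.42.0, its size factors, no filter, the other count tables, the experiment as a replicate block, and each library or experiment left out. The edgeR step was tested on simulated data. Libraries with the same number come from the same labelled experiment, and their deviations from group means correlated at 0.07 to 0.65 between accessions and at -0.36 to 0.46 in other comparisons.

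All 8 members were tested in every comparison, the less changed being given as a range. For each other list up to 4 genes with the largest called cold change are named, and for each member the 3 genes most alike in Pearson r, other genes being named only where a count of 5 or fewer is broken down. The members and lists were chosen with earlier results of these data known. Promoter coordinates come from TAIR10.1 alone, whose identifiers matched 32835 of 33602 in the table.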

Additional observations from a re-analysis of the deposited data

Results flagged for a closer look

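Some genes of the lists were listed at 0 in all 36 libraries of the STAR and TopHat tables and had reads in the kallisto table, which the main comparisons do not use. Summed over the 36 libraries, the kallisto estimated counts were 1756.0 for TPPF, 9352.5 for TPPG, 4534.5 for BZIP1, 25949.5 for BZIP2, 9607 for BZIP11, 1399.1 for BZIP44 and 22310.0 for BZIP53, and 1 for TPS3, which is below the floor of 3 counts. A neighbouring identifier, also at 0 in the STAR table, held the same kallisto count in every library for 6 of them and in 19 of 36 libraries for BZIP44. Over the 32243 loci in both tables, 5592 were at 0 in the STAR table, and 144 of these had a kallisto sum above 1000. What sets the tables apart was not tested. The 8 TPS members are not among these loci.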

How the results depend on the processing

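No result changed its direction while called. With the TopHat and kallisto counts, DESeq2's size factors or no filter on low counts, each count of called members stayed within 1.5 times the main one. DESeq2's test gave 1 member in place of 0 between accessions in C35P3 and 1 in C28P3L7T3. With the experiment as a replicate block, TPS8 passed in the second cold in Col-0 (-1.63, adjusted p = 0.031), TPS1 in N14 (0.76, adjusted p = 0.039) and TPS5 in the accession average (0.40, adjusted p = 0.028), and no other call changed. With a term for each experiment and condition, accessions differed in 1 member in C28, 3 in C28P3, 3 in C35, 3 in C35P3, 1 in C28P3L7, 4 in C28P3L7T3 and 5 on average. Leaving out 1 library or experiment gave 3 to 6 called members at 35 days in Col-0 and 3 to 5 in N14, 0 to 5 in the second cold in Col-0 and 1 to 5 in N14, 0 to 1 between accessions in C28P3L7 and 1 to 2 on average. Of 31 calls of members in the cold, 22 held without any single library and 17 without any library or experiment. TPS6 at 28 days in Col-0 was also lost with no filter on low counts (adjusted p = 0.067). At 3 libraries a group, the wide spread between experiments in warm plants limits what can be called, and TPS9 had as few as 8 counts in a library.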
